A study of Mus musculus with 6 samples.

Results

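Genes of conjugating enzymes were followed in large-intestinal epithelium from C57BL/6 mice raised germ-free, that is, without a microbiota. The set held UDP-glycosyltransferases (UGT families 1, 2, 3 and 8), cytosolic sulphotransferases (SULT), soluble glutathione S-transferases (GST) and the microsomal ones (MGST). The set was chosen by gene symbol alone. Of 19533 genes on probe sets that name exactly 1 gene, 49 belonged to it, namely 11 UGT, 16 SULT, 19 GST and 3 MGST genes. Another 17 genes of these families, among them all 8 Ugt1a genes on the array and Gsta1 and Gsta2, had no probe set to themselves and were seen only on shared ones. These are described as probe sets. RefSeq lists 68 protein-coding genes of the pattern, and no probe set used here named 2 of them.

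Conjugating enzymes attach a large polar group to a lipophilic compound so that it can be exported and excreted. UGTs sit in the endoplasmic reticulum and use UDP-glucuronate, SULTs use the sulphate donor PAPS in the cytosol, and GSTs add glutathione to electrophiles. The epithelium of the gut carries members of all these families, where they meet dietary compounds, drugs, bile acids and steroids.

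The study compared 3 control mice with floxed Hdac3 alleles (HDAC3FF) with 3 knockouts in which the deletion of Hdac3 is intrinsic to these epithelial cells (HDAC3ΔIEC), asking how the transcripts of live EpCAM+ epithelial cells differ with this histone deacetylase when no bacteria are present. All 6 mice were germ-free and of the same strain. Not given in the sources used here were age, sex and the driver of the deletion. Total RNA of each mouse was hybridised to 1 Affymetrix array, and the values are log2 signals, so that a difference of 1 is a doubling. Signals of different probe sets do not rank the amounts of their RNAs, so comparisons below are within a gene.

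The targeted gene Hdac3 read 6.96, 7.36 and 7.04 in HDAC3FF and 6.58, 6.22 and 6.00 in HDAC3ΔIEC. The groups did not overlap, but the log2 difference of -0.86 ± 0.17 (SE) missed the threshold of 0.05 (limma adjusted p = 0.0937). Some of its probes may target exons that the deletion leaves in place, which was not tested. Epcam read 10.75 to 11.06 and the colonocyte gene Car1 12.80 to 13.07 over the 6 arrays. The 11 leukocyte markers measured had mean signals of at most 5.03, under the median of all genes, and none passed. Of 8 enteroendocrine markers 2 rose, and their summed level was 11.20 to 12.16 in HDAC3FF and 12.95 to 13.28 in HDAC3ΔIEC on the log2 scale. Of 10 small-intestine markers none passed with 6 arrays, at summed levels of 13.65 to 14.06 and 13.79 to 14.22. Of 8 large-intestine markers 1 fell, Mptx1 (-2.01, limma adjusted p = 0.00923). Of 5 genes typical of hepatocytes, which carry many conjugating enzymes, none passed with 6 arrays; their summed level was 11.53 to 11.81 in HDAC3FF and 10.42 to 10.94 in HDAC3ΔIEC, set by Ttr and Apob, while Alb, Fgb and Cyp2e1 had mean signals under 4. The ileal bile acid binding protein gene Fabp6 read 2.23 ± 0.51 (SE) higher without passing (limma adjusted p = 0.125). It belongs to the small-intestine list, in which 7 genes had differences above 0 and 3 below. Mep1a (-0.97 ± 0.19, limma adjusted p = 0.0818) and Alpi (-1.01 ± 0.40, limma adjusted p = 0.41) of that list read lower, with groups that did not overlap. The part of these cell types in the results below was not tested, and in bulk RNA fewer cells of a type and less RNA per cell cannot be told apart.

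HDAC3FF replicate 3 stood apart from its group for these genes. Of the 29 members with a mean signal at or above the median of all genes, 22 (75.9%) were lowest there among the 3 controls, against 40.7% of all genes with such signals. Over all genes its root mean square difference from the mean of the other controls was 0.31 on the log2 scale. The other controls were at 0.223 and 0.241, each set against its own group. Among the HDAC3ΔIEC arrays replicate 3 stood farthest from its group, at 0.267 against 0.197 and 0.2. Calls that change without HDAC3FF replicate 3 are given beside the values from 6 arrays. Without it, 5 of the 8 enteroendocrine markers passed (all higher), Fabp6 (1.64, limma adjusted p = 0.0459) and Apoa4 of the small-intestine list passed higher, Krt18 and Krt20 of 8 epithelial markers and Aqp8 of the large-intestine list passed higher, and Ttr of the hepatocyte list passed lower (-2.03, limma adjusted p = 0.0203). Mep1a and Alpi of the small-intestine list then read lower (-0.86 and -0.58) without passing (limma adjusted p = 0.0801 and 0.391).

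Of the members, Gstp3 alone passed over all genes. This pi class glutathione S-transferase rose 3.23-fold in HDAC3ΔIEC. No UGT, SULT or MGST gene passed. Sult1a1 and Sult1c2 had the largest differences in the other direction, at 31.5% and 34.0% of the control level. The alpha class genes Gsta3 and Gsta4 read 2.06-fold and 2.07-fold higher, and 1 of 3 probe sets shared by Gsta1, Gsta2 and their near copies rose 6.15-fold.

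The count of 1 passing member in 49 (2.04%) compares with 0.701% of all 19533 genes (0.369% higher and 0.333% lower). Groups did not overlap for 13 members (26.5%), against 16.2% of all genes. The 7 higher ones (8.45% of all genes were higher in this way) were Gsta3, Gsta4, Gstk1, Gstp1, Gstp3, Sult1c1 and Sult4a1, and the 6 lower ones (7.7% of all genes) were Sult1a1, Sult1c2, Ugt2a3, Ugt2b34, Ugt2b35 and Gstm5. A log2 difference of at least 1 in size was measured for 5 members (10.2%), namely Gstp3, Gsta3, Gsta4, Sult1a1 and Sult1c2, against 1.02% of all genes. Without HDAC3FF replicate 3, Gsta3 and Gsta4 fell short of 1, at 0.74 and 0.65. The median difference over the 49 members was 0.01, as small as that over all genes, 0.011. Many members read low: 20 had mean signals under the median of all genes, 16 of them under 4, where log2 differences between the groups did not exceed 0.24 in size. With 3 arrays against 3, their number limits the precision of each value.

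**Figure D1:**
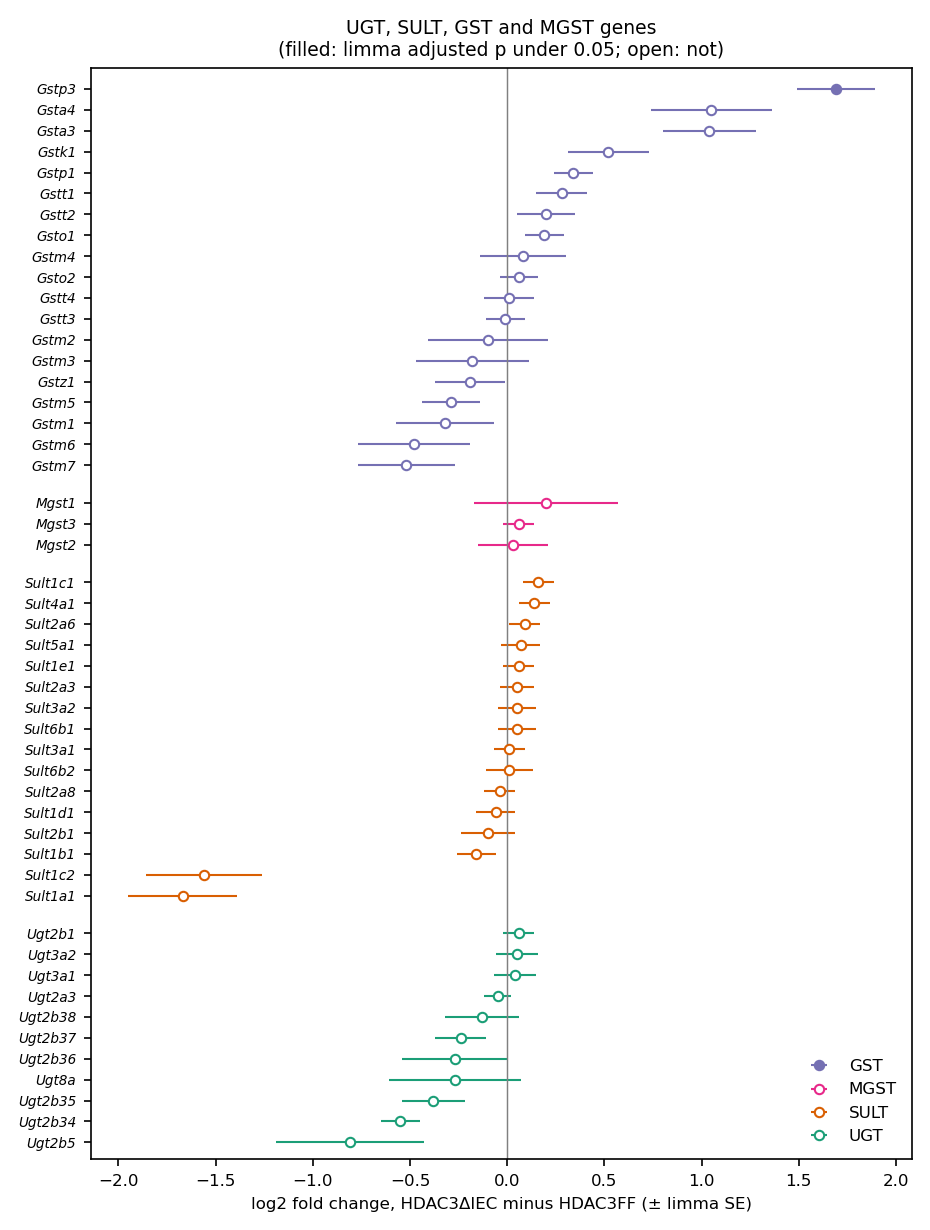
Log2 fold change of HDAC3ΔIEC against HDAC3FF with limma's standard error for the 49 genes, by enzyme class, filled where the limma adjusted p was under 0.05. Gstp3 (1.69) is the single filled point, Sult1a1 (-1.67) and Sult1c2 (-1.56) lie farthest to the left, and 8 of 11 UGT genes lie below 0.

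Pi class GSTs conjugate reactive electrophiles, and in the mouse they are encoded by the neighbouring genes Gstp1, Gstp2 and Gstp3. Gstp3 read 6.08, 6.63 and 5.96 in HDAC3FF and 8.19, 7.71 and 7.84 in HDAC3ΔIEC. The lowest HDAC3ΔIEC array thus stood more than 1 log2 unit above the highest control, and the log2 difference was 1.69 ± 0.20 (SE, limma adjusted p = 0.0258). The call held without HDAC3FF replicate 2 or 3 (log2 difference 1.56 and limma adjusted p = 0.0191 without the latter). It was lost without HDAC3FF replicate 1 or any 1 of the HDAC3ΔIEC arrays, where the adjusted p ran from 0.0749 to 0.122 and the difference from 1.55 to 1.79.

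Gstp1, on a probe set of its own, read 11.77, 12.02 and 11.77 in HDAC3FF and 12.25, 12.20 and 12.14 in HDAC3ΔIEC. Its groups were separate but close, and the difference of 0.34 ± 0.10 (SE) did not pass (limma adjusted p = 0.226). Probe sets that name both Gstp1 and Gstp2 read 10.88, 11.23 and 10.92 against 11.67, 11.67 and 11.70 on the first, and 10.77, 11.02 and 10.75 against 11.54, 11.50 and 11.38 on the second. Both were higher on every HDAC3ΔIEC array, by 0.67 ± 0.11 and 0.63 ± 0.10 (SE), and neither passed over all 24939 probe sets (limma adjusted p = 0.0657 and 0.0673). RNA of Gstp1 and Gstp2 cannot be told apart there, and probes of Gstp3 may also bind RNA of its neighbours.

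The 250 bases before the RefSeq start sites of the pi class genes (GRCm38.p6, minus strand) are shown because these genes lie side by side and gave differences of unequal size. They span chr19:4037913-4038162 for Gstp1, chr19:4042222-4042471 for Gstp2 and chr19:4059448-4059697 for Gstp3. Capitals mark matches, on either strand, to the core of the xenobiotic response element (GCGTG), which the aryl hydrocarbon receptor binds, and to a MARE-like site (TGAGTCAGC), of the kind bound by NRF2 with small MAF proteins.
Gstp1: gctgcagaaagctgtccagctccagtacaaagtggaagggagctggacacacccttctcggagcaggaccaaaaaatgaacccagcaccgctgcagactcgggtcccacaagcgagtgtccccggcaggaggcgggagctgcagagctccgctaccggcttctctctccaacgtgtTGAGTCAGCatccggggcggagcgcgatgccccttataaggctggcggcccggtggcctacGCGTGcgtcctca
Gstp2: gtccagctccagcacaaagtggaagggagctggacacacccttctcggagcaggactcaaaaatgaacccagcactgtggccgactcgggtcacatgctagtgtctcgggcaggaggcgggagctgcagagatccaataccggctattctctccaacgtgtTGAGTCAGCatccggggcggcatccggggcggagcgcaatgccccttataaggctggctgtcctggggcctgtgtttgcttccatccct
Gstp3: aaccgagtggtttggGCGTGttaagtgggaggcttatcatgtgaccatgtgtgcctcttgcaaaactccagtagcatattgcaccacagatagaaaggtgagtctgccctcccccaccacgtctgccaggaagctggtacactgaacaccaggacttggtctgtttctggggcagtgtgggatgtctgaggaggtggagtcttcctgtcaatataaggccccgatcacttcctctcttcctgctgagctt
Gstp1 and Gstp2 were 78.1% identical over these bases, and both hold the MARE-like site, which 0.347% of 32851 windows of the same length hold. This motif was chosen after the sequences were seen, so that share does not measure how unusual the matches are. Gstp3 was 50.0% identical to Gstp1 and 46.5% to Gstp2, and TGAGTCAGC is not in its window. The xenobiotic core is in the windows of Gstp1 and Gstp3, and in 28.2% of all windows.

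Alpha class GSTs act on lipid hydroperoxides and reactive aldehydes, Gsta4 on aldehydes of lipid peroxidation in particular, and mouse Gsta3 is known for conjugating the epoxide of aflatoxin. Gsta3 read 6.79, 6.68 and 5.84 in HDAC3FF and 7.36, 7.46 and 7.61 in HDAC3ΔIEC. All 3 HDAC3ΔIEC arrays were above all controls, and the difference of 1.04 ± 0.24 (SE) did not pass with 6 arrays (limma adjusted p = 0.127). Without HDAC3FF replicate 3, its lowest control, the difference was 0.74 and passed (limma adjusted p = 0.0248). Gsta4 read 7.92, 8.04 and 6.79 in HDAC3FF and 8.58, 8.84 and 8.48 in HDAC3ΔIEC. Its groups were also separate, with a difference of 1.05 ± 0.31 (SE, limma adjusted p = 0.246), or 0.65 without HDAC3FF replicate 3 (limma adjusted p = 0.0575).

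The array holds 3 probe sets that each name Gsta1, Gsta2 and the predicted genes Gm3776 and Gm10639, which lie next to them. One read 9.08, 8.91 and 8.03 in HDAC3FF and 11.08, 11.26 and 11.56 in HDAC3ΔIEC. Its signal rose by 2.62 ± 0.28 (SE), with every HDAC3ΔIEC array above every control, and passed over all probe sets, of which 0.405% passed (limma adjusted p = 0.0191). The second read 9.12, 8.50 and 7.01 against 11.36, 11.33 and 11.94, and the remaining one 8.74, 8.94 and 7.40 against 10.83, 10.95 and 11.52. Both showed the same separation, with differences of 3.33 ± 0.50 and 2.74 ± 0.40 (SE), and did not pass (limma adjusted p = 0.0529 and 0.0522). Without HDAC3FF replicate 3, the lowest control on each, all 3 passed with differences of 2.3, 2.74 and 2.26, where 1.4% of all probe sets passed, and without any other single array none did. Which of the 4 genes carried the signal cannot be told from these probe sets.

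**Figure D2:**
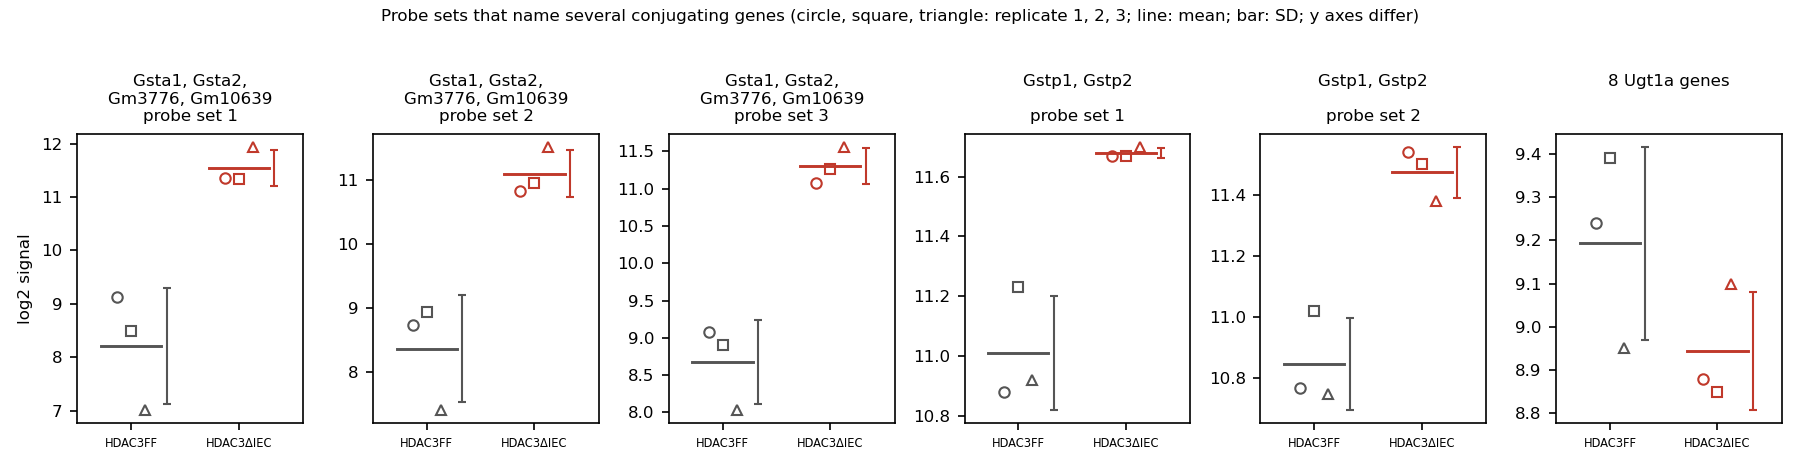
Log2 signal of each array on 6 probe sets that name several conjugating genes, with the mean and SD of each group (n = 3); circles, squares and triangles are replicates 1, 2 and 3. The HDAC3ΔIEC arrays lie above all controls on the 3 Gsta and 2 Gstp probe sets, HDAC3FF replicate 3 is the lowest control on the Gsta ones, and the groups overlap for the Ugt1a genes.

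Upstream sequences of Gsta1, Gsta2 and Gm3776 are shown because the array cannot separate these genes. Gsta3, which has a probe set of its own, is shown beside them, and Gm10639 is not printed. In GRCm38.p6 the 250 bases before the start lie at chr9:78230419-78230668 for Gsta1, chr9:78256879-78257128 for Gm3776 and chr1:21240335-21240584 for Gsta3 (plus strand), and at chr9:78347146-78347395 for Gsta2 (minus strand). Capitals mark the antioxidant response element core (TGACNNNGC), the xenobiotic core (GCGTG), an HNF1 half-site (GTTAAT) and the TATA box letters (TATAAA), on either strand. The Gsta2 match to TATAAA lies on the other strand at position -246, far from the start, and is a match of letters only.
Gsta1: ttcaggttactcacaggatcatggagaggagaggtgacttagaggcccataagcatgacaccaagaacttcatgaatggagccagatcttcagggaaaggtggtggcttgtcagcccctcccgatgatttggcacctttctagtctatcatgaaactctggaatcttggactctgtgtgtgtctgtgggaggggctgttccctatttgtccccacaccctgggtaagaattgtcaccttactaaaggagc
Gm3776: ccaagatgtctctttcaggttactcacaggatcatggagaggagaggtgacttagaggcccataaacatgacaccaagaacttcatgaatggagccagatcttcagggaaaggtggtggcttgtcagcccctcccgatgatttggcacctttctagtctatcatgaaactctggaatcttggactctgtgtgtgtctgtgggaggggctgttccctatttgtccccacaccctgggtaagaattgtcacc
Gsta2: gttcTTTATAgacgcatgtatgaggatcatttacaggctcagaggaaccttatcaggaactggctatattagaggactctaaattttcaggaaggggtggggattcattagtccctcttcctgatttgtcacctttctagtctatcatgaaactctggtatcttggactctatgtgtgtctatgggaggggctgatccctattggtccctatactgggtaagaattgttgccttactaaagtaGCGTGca
Gsta3: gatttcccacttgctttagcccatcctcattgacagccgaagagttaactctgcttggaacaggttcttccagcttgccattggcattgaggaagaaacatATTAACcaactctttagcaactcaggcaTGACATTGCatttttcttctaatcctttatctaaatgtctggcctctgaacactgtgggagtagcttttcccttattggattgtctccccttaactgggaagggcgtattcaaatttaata
Gsta1 was 89.7% identical to Gm3776, 87.9% to Gm10639 and 70.5% to Gsta2, and Gm3776 and Gm10639 were 97.2% identical. Gsta3, which lies on another chromosome, was 52.2% identical to Gsta1. The antioxidant core TGACNNNGC is in the window of Gsta3 as TGACATTGC, at position -121 from the start, and in none of the other windows printed here. It is in 10.2% of all windows. Bases farther upstream than 250 were not searched in any gene.

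The mu class genes, which form a cluster of their own, gave no passing member among 7, with 1 difference above 0 and 6 below and a median of -0.29. Gstm1, which conjugates a broad range of electrophiles, read 10.62, 10.85 and 9.93 in HDAC3FF and 10.36, 10.28 and 9.79 in HDAC3ΔIEC. The groups overlapped (-0.32 ± 0.25, SE). At the median of the 7 genes, relative to each gene's control mean, HDAC3FF replicate 3 was at -0.53 and HDAC3ΔIEC replicate 3 at -0.60, while the other HDAC3ΔIEC arrays were at -0.11 and -0.18. Gstm6 read 6.30, 6.38 and 5.23 against 5.54, 5.57 and 5.36, and it was called lower without HDAC3FF replicate 3 (log2 difference -0.85, limma adjusted p = 0.0160), having been chosen for mention after that value was seen. The 2 probe sets of Gstm3 gave -0.33 and -0.18 with overlapping groups, and the latter ran from -0.50 to 0.07 with single arrays left out. Genes of this cluster are similar in sequence, and their probe sets may share RNA.

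The remaining soluble GSTs have special roles. Gstk1 encodes the kappa class enzyme of mitochondria and peroxisomes, and it read 9.51, 9.68 and 8.83 in HDAC3FF and 9.84, 9.96 and 9.77 in HDAC3ΔIEC. Its groups were separate, yet the difference of 0.52 ± 0.21 (SE) did not pass (limma adjusted p = 0.420) and was 0.26 without HDAC3FF replicate 3. Gsto1, an omega class enzyme that reduces dehydroascorbate, read 0.19 ± 0.10 higher, with overlapping groups (limma adjusted p = 0.585). The theta class genes, 4 in number, had differences from -0.01 to 0.28, and Gstz1, the isomerase of tyrosine breakdown, had one of -0.19. The median over all 19 GST genes was 0.06, and -0.03 without HDAC3FF replicate 3.

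The microsomal enzymes Mgst1, Mgst2 and Mgst3, membrane proteins related to leukotriene synthesis enzymes, showed no separation of the groups. Mgst1 read 10.70, 10.58 and 9.17 in HDAC3FF and 10.38, 10.41 and 10.24 in HDAC3ΔIEC. Its difference of 0.20 ± 0.37 (SE, limma adjusted p = 0.926) turned to -0.29 without the low control array and to -0.02 with array weights. Mgst2 differed by 0.03 ± 0.18, and by -0.03 with quantile normalization, and Mgst3 by 0.06 ± 0.08 (limma adjusted p = 0.981 and 0.895).

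Among the sulphotransferases, Sult1a1 and Sult1c2 stood apart from the other 14 members, whose differences lay between -0.16 and 0.16. Sult1a1, the main phenol sulphotransferase, read 10.33, 10.44 and 9.49 in HDAC3FF and 8.83, 8.29 and 8.12 in HDAC3ΔIEC. Every HDAC3ΔIEC array was below every control, and the difference of -1.67 ± 0.28 (SE) did not pass with 6 arrays (limma adjusted p = 0.0620). Without HDAC3FF replicate 3 it was -1.97 and passed (limma adjusted p = 0.00840), and with each other single array left out it did not (up to 0.247).

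Sult1c2, a second member of family 1, read 8.48, 8.60 and 7.51 in HDAC3FF and 6.82, 6.80 and 6.30 in HDAC3ΔIEC. The groups were separate, with a difference of -1.56 ± 0.30 (SE, limma adjusted p = 0.0794). It too passed without HDAC3FF replicate 3, at -1.90 (limma adjusted p = 0.00550), and with no other single array left out. Both genes also passed with an intensity trend in the variance model (limma adjusted p = 0.0307 for Sult1a1 and 0.0452 for Sult1c2). They did so with array weights too (0.0203 and 0.0198). The weights were estimated from these arrays and were lowest for HDAC3FF replicate 3 (0.475), so that setting is not separate from leaving it out. With genes under the median signal left out both passed (0.0295 and 0.0428). Neither passed with a replicate block (limma adjusted p = 0.0815 and 0.0791) or quantile normalization (0.0614 and 0.0775). The same held for centring on array medians (0.0613 and 0.0861).

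Other members of family 1 gave smaller differences. Sult1b1, which sulphates phenols and thyroid hormones, read 10.42, 10.12 and 10.33 in HDAC3FF and 10.06, 10.22 and 10.11 in HDAC3ΔIEC (-0.16 ± 0.10, SE, limma adjusted p = 0.672). Sult1d1, a catecholamine sulphotransferase, read 11.34, 11.13 and 11.15 against 11.02, 11.19 and 11.22 (-0.06 ± 0.10, limma adjusted p = 0.907). The groups overlapped for both. Sult1c1 had separate groups at low signals of 3.32 to 3.61, with a difference of 0.16 ± 0.08 (limma adjusted p = 0.556). Sult2b1, which sulphates cholesterol, differed by -0.10 (-0.19 to 0.05 with single arrays left out), and 10 of the 16 SULT genes, including all measured Sult3 and Sult6 genes, had mean signals under 4. The probe set shared by Sult2a1, Sult2a2, Sult2a4 and Sult2a5 read 3.30 to 3.68 on all arrays.

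The window before Sult1a1 (GRCm38.p6, minus strand, chr7:126676419-126676668) is given because this gene had the largest difference among members below 0. Capitals mark an HNF1 half-site at position -232.
Sult1a1: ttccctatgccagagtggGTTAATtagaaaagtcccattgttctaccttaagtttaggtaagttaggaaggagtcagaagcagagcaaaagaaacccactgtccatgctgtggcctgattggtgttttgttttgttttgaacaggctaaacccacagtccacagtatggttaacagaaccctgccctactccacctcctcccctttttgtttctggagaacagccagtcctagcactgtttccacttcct
GTTAAT or its reverse complement is in 6.43% of all windows and in 14 of 71 windows (19.7%) of 59 conjugating genes found in the promoter table. Among the 14 are the related genes Sult2a3, Sult2a4, Sult2a5 and Sult2a6, and Ugt1a1, Ugt1a6a, Ugt1a9 and Ugt1a10, so the windows are not independent. Gsta3, which read higher, holds the half-site too. The same 71 windows held the antioxidant core in 4 (5.63%), the xenobiotic core in 12 (16.9%) and the HNF4 site CAAAGTCCA in 0, against 0.384% of all windows for the last. A motif this rare is likely to be missing from any 71 windows, so the 0 carries no information. None of the motifs named in this paragraph is in the windows of Sult1c2, Ugt2b34 or Ugt2b5.

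**Figure D3:**
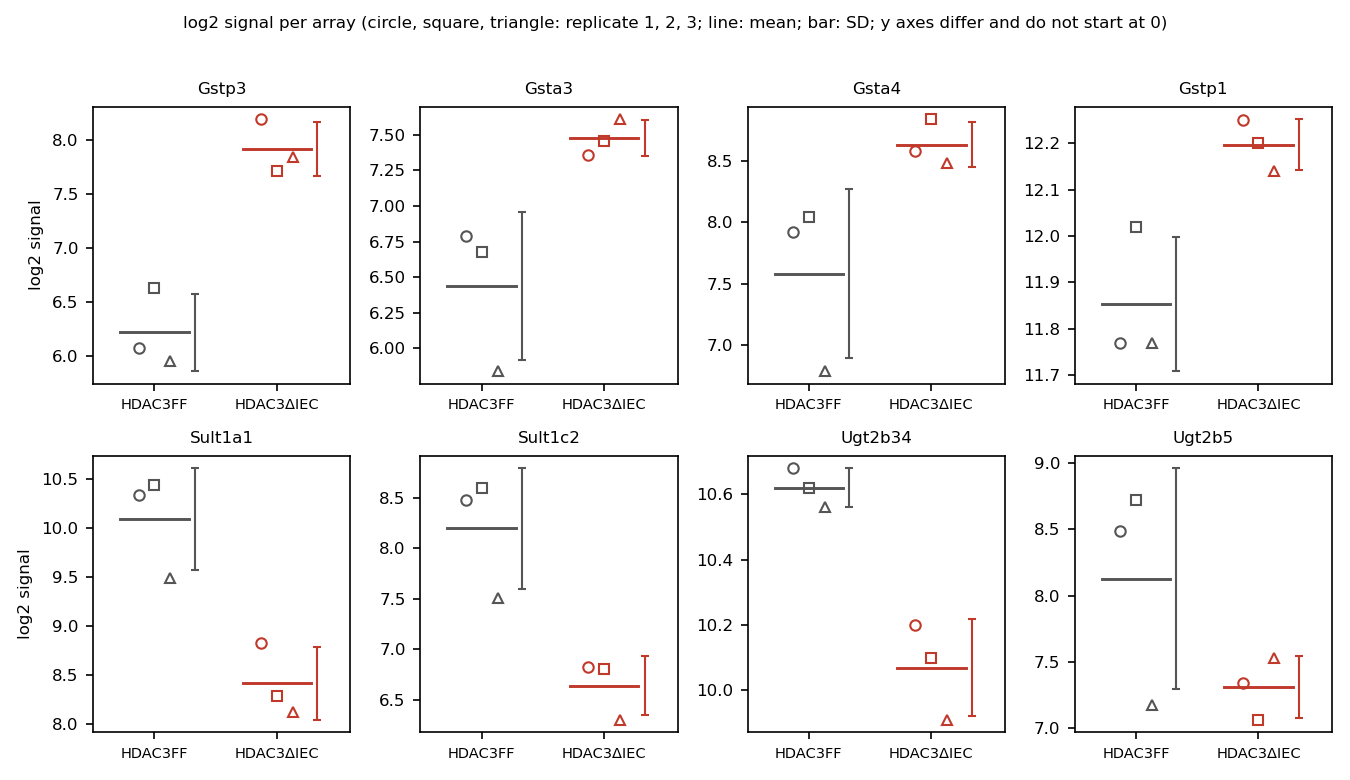
Log2 signal of each array for 8 members, with the mean and SD of each group (n = 3); circles, squares and triangles are replicates 1, 2 and 3, and y axes differ between panels. HDAC3ΔIEC arrays lie above all controls for Gstp3, Gsta3, Gsta4 and Gstp1 and below all controls for Sult1a1, Sult1c2 and Ugt2b34, while for Ugt2b5 HDAC3FF replicate 3 (7.17) lies among them.

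Of the UGT genes 8 had differences below 0 and 3 above, with a median of -0.24 and a range from -0.81 to 0.06, and none passed. Ugt2b34, a steroid and xenobiotic glucuronosyltransferase, read 10.68, 10.62 and 10.56 in HDAC3FF and 10.20, 10.10 and 9.91 in HDAC3ΔIEC. The arrays of each group lay close together and did not overlap, and the difference of -0.55 ± 0.10 (SE) missed the threshold (limma adjusted p = 0.0770). It was -0.58 without HDAC3FF replicate 3, whose signal lay close to those of the other controls. Quantile normalization let it pass by a narrow margin (limma adjusted p = 0.0499), and so did array weights (0.0418). It did not pass with a replicate block (limma adjusted p = 0.151), an intensity trend (0.105) or centring on array medians (0.0969).

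Ugt2b5, an abundant family member in mouse liver that acts on steroids and phenols, read 8.49, 8.72 and 7.17 in HDAC3FF and 7.34, 7.06 and 7.53 in HDAC3ΔIEC. The low control lay within the HDAC3ΔIEC range, and the difference was -0.81 ± 0.38 (SE, limma adjusted p = 0.50). Without HDAC3FF replicate 3 it was -1.29 and passed (limma adjusted p = 0.0148). Ugt2b35 read 4.56, 4.94 and 4.26 against 4.22, 4.16 and 4.22, which left the groups separate by a small step (-0.38 ± 0.16, limma adjusted p = 0.442). At the median of the 7 Ugt2b genes, relative to each gene's control mean, HDAC3FF replicate 3 was at -0.32 and the HDAC3ΔIEC arrays were at -0.14, -0.43 and -0.36. The low control thus lay within the HDAC3ΔIEC range.

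Ugt8a, which makes galactosylceramide rather than glucuronides, read 6.53, 7.05 and 5.80 in HDAC3FF and 6.07, 5.79 and 6.71 in HDAC3ΔIEC (-0.27 ± 0.34, SE, limma adjusted p = 0.871). Its groups overlapped, and those of Ugt3a1 and Ugt3a2 did so at signals between 3.01 and 3.46. The single probe set of the 8 Ugt1a genes, which share their last exons and include the bilirubin enzyme Ugt1a1, read 9.24, 9.39 and 8.95 in HDAC3FF and 8.88, 8.85 and 9.10 in HDAC3ΔIEC. The groups overlapped and the difference of -0.25 ± 0.14 (SE) did not pass (limma adjusted p = 0.613). Ugt2a1 and Ugt2a2 share a probe set that read 3.20 to 3.42.

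**Figure D4:**
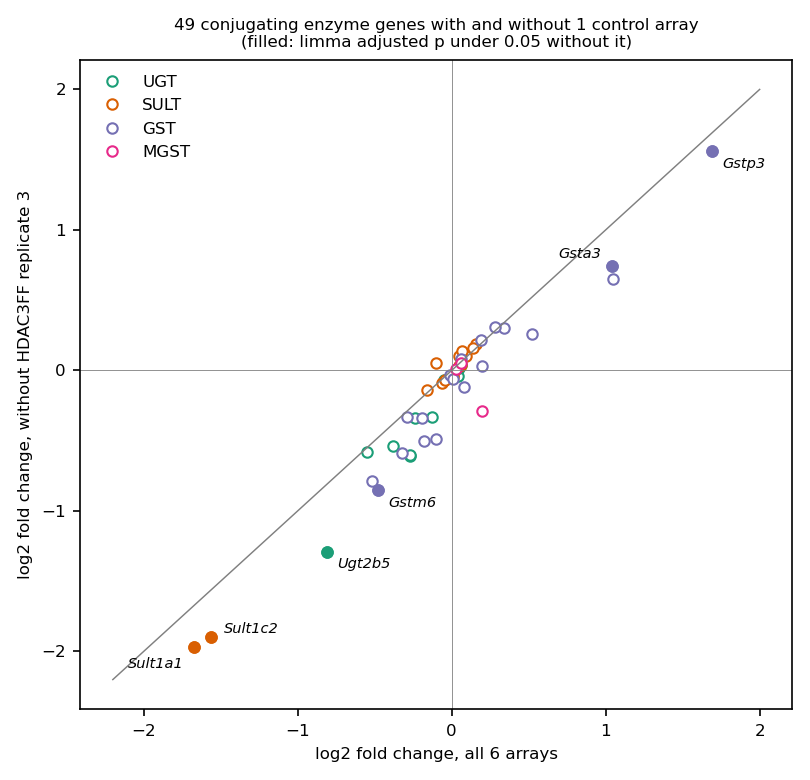
Log2 fold change of the 49 genes with all 6 arrays (x axis) and without HDAC3FF replicate 3 (y axis), filled where the limma adjusted p was under 0.05 without that array; the grey diagonal marks equal values. The 6 filled genes are Gstp3 and Gsta3 on the higher side and Sult1a1, Sult1c2, Ugt2b5 and Gstm6 on the lower, and most GST and UGT points lie below the diagonal.

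With HDAC3FF replicate 3 left out, 6 of 49 members passed, 2 higher and 4 lower, against 2.2% of all genes (1.0% higher and 1.2% lower) without that array. The array was singled out partly by the values of these same members, so the larger share is not separate support. With any other single array left out, 0 or 1 member passed. With replicate 3 of both groups left out, 7 passed, Gsta4 in addition, against 3.81% of all genes in that setting.

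Genes that supply or use the donors were described by lists. Of 20 measured genes of glutathione supply and use, Gclc, the catalytic subunit of the enzyme that starts glutathione synthesis, rose and the other 19 did not pass. It read 8.75, 8.65 and 8.78 in HDAC3FF and 9.40, 9.64 and 9.91 in HDAC3ΔIEC (0.92 ± 0.13, SE, limma adjusted p = 0.0402). The controls lay close together, and the list's median was 0.17. Of 7 genes around UDP-glucuronate none passed (median 0.27): Ugdh, which makes this donor, had a difference of -0.29 ± 0.09 (limma adjusted p = 0.231), with groups that did not overlap. Of 13 genes of sulphate supply none passed with 6 arrays (median -0.03), with the smallest p for the sulphurtransferase Tst (0.69 ± 0.13, limma adjusted p = 0.0819). Papss2, which makes PAPS, read 11.72, 11.92 and 11.56 against 11.38, 11.29 and 11.22 and is named for its role (-0.43 ± 0.11, limma adjusted p = 0.172). Without HDAC3FF replicate 3, Suox, the sulphite oxidase, passed higher (0.87 with 6 arrays, 1.11 without it, limma adjusted p = 0.0427), and Papss2 did not pass (0.0642).

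Neighbouring steps gave no call with 6 arrays. None passed of 14 other conjugating enzymes (median -0.06), where Tst again had the smallest p, of 11 other glutathione-dependent or GST-fold genes (median 0.04), or of 3 genes that remove sulphate or glucuronate (median 0.08). Clic4, a GST-fold chloride channel protein, had a difference of 0.63 ± 0.15 (SE, limma adjusted p = 0.151) and the arylsulphatase gene Arsb one of -0.37 ± 0.13 (limma adjusted p = 0.308). Without HDAC3FF replicate 3 each of these lists had 1 passing gene: Clic4 at 0.76 (limma adjusted p = 0.0486), Arsb at -0.50 (0.0452) and the arsenic methyltransferase As3mt at -0.88 (0.0304). Of 16 transporters of conjugates none passed (median 0.07), with Abcb1a, the P-glycoprotein efflux pump, at 0.57 ± 0.11 (limma adjusted p = 0.0823). Without that array 3 of the 16 passed, Abcb1a at 0.66 (limma adjusted p = 0.0286) and Slc51b, a subunit of the basolateral bile acid and steroid exporter, at 0.95 (0.00738) on the higher side, and the uptake carrier Slco2b1 at -0.86 (0.0232) on the lower.

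Of 27 transcriptional regulators known to act on conjugating enzyme genes, Hnf4g, a nuclear receptor of gut epithelium, fell and 26 did not pass (median 0.07). Hnf4g read 8.97, 8.76 and 8.59 in HDAC3FF and 7.73, 7.05 and 7.06 in HDAC3ΔIEC, with no overlap (-1.49 ± 0.20, SE, limma adjusted p = 0.0334). Of 12 marker targets of the aryl hydrocarbon receptor and NRF2, the aldo-keto reductase Akr1b8 rose and 11 did not pass (median 0.11). It read 8.03, 8.28 and 7.16 against 9.76, 10.29 and 9.91 (2.16 ± 0.29, limma adjusted p = 0.0328). Groups were also separate on the higher side for Txnrd1, thioredoxin reductase (0.63 ± 0.11, limma adjusted p = 0.0652), and Hmox1, haem oxygenase (0.58 ± 0.19, limma adjusted p = 0.278). A pair of marker genes known for strong induction is named for their role: the aryl hydrocarbon receptor target Cyp1a1 read 3.75 to 4.03 on all arrays (0.00 ± 0.10), and the NRF2 target Nqo1 read 7.49, 7.80 and 5.98 against 7.26, 7.31 and 7.43 (0.24 ± 0.43, turning to -0.31 without HDAC3FF replicate 3). The groups overlapped for both. In the corepressor complex, Tbl1x rose (0.65 ± 0.09, limma adjusted p = 0.0355) and 3 other measured genes, Hdac3 among them, did not pass. Gclc, Hnf4g, Akr1b8 and Tbl1x passed without HDAC3FF replicate 3 too.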

How the data were processed

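The authors deposited log2 signals, judged so from their range. The submitters' processing notes name Affymetrix Power Tools. Its version, the background correction, normalization and filters: not given in the sources used here. No pair of arrays held the same values, and the columns were used unchanged. Probe sets were named from the platform annotation: 21105 name 1 gene, 1254 several and 2580 none. For each of 19533 genes the brightest probe set by its 6-array mean was kept.

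The genotypes were compared with limma 3.58.1 in R 4.3.3 (lmFit and eBayes, two-sided, no covariate, 3.26 prior degrees of freedom), adjusted by Benjamini-Hochberg over 19533 genes and called under 0.05. Probe sets of several genes were tested over all 24939 probe sets. On simulated data of 19533 genes for this comparison, calls reached 72.4% of genes given a log2 change of 1 and 28.0% of those given 0.5. The simulated noise was independent for each gene and array, with equal spread in both groups. The real data hold a control array that stood apart, so these shares may not hold for them. The changed genes, 200 per run, were drawn at random from all genes, dim ones included. Members with a wide spread between controls, such as Gsta4 (SD 0.69), may be called less often. The titles number replicates in both groups, but deviations of same-numbered arrays correlated at -0.02, -0.07 and -0.20, so no pairing was used. The design text calls the arrays of a group biological replicates.

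Members and lists were chosen with earlier results of these data known. Members named are those called, the 3 with the smallest p and the 3 with the highest signal of each class, and those with separate groups and a difference of at least 0.5; per list the called genes or the 1 with the smallest p. The marker genes Epcam, Car1, Fabp6, Mptx1, Ttr, Apob, Alb, Fgb, Cyp2e1, Apoa4, Mep1a, Alpi, Krt18, Krt20 and Aqp8, and Gstm6, Papss2, Suox, As3mt, Slc51b, Slco2b1, Txnrd1, Hmox1, Cyp1a1 and Nqo1, were named after their values were seen, and members named in passing are in ranges. Upstream sequences are RefSeq's (GRCm38.p6); identity is from global alignment with Biopython 1.88. The MARE-like motif was chosen after the sequences were seen. Figures were drawn with matplotlib 3.10.9.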

Additional observations from a re-analysis of the deposited data

How the results depend on the processing

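The number of members called, 1 with the deposited values and 6 arrays, was also 1 with centring on array medians, averaging a gene's probe sets or adjustment over all probe sets. It was 0 with a replicate block (12 of all 19533 genes called), 2 with quantile normalization (137), 3 with genes under the median signal left out (190 of 9767), 3 with an intensity trend (178), 4 with array weights (357) and 7 without replicate 3 of both groups (744), against 137 in the fit reported. With each array left out in turn it ran from 0 to 6, and calls over all genes from 13 to 430, both highest without HDAC3FF replicate 3. Gstp3 was called in all of these except the replicate block (limma adjusted p = 0.107) and 4 of the 6 omissions of 1 array. The count of shared probe sets called was 1, with the block 0, and 0 to 3 with arrays left out. Same-numbered arrays were not paired by the data, so the block is only a check.

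Class medians moved by more than their spread between arrays in a few settings. Leaving out dim genes gave -0.41 for 4 UGT and -0.16 for 5 SULT genes; array weights and omission of replicate 3 of both groups gave -0.02 and -0.21 for MGST. With arrays left out in turn the UGT median ran from -0.34 to -0.04 (the latter without HDAC3FF replicate 2) and the MGST median from 0.01 to 0.17. Directions turned for Mgst1 (-0.02 with array weights, -0.24 without replicate 3 of both groups, -0.29 to 0.47 with arrays left out) and Mgst2 (-0.03 with quantile normalization, -0.08 with array weights, -0.21 without replicate 3 of both groups, -0.19 to 0.17 with arrays left out). They also turned with 1 array left out for Sult1d1 (-0.10 to 0.00), Ugt8a (-0.60 to 0.02), Gstm3 (-0.50 to 0.07), Sult2b1 (-0.19 to 0.05) and the GST median (-0.03 to 0.17), among values printed; other members with differences near 0 turned as well. The causes were not tested. Signals below background are not marked in the deposited values, so differences among members with signals under 4 have no lower limit of detection.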
